A study of Mus musculus with 8 samples.

Results

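The nuclear genes for subunits of the 5 oxidative phosphorylation complexes were examined in male C57BL/6J mouse embryonic stem cells of the line Bruce 4. They were chosen by symbol (Nduf A, B, C, S and V genes, Sdha to Sdhd, and genes whose symbols begin with Uqcr, Cox4 to Cox8 or Atp5) and by a level of at least 1 FPKM in at least 2 of 8 libraries. FPKM, the usual measure of fragments relative to transcript length and sequencing depth, is summed here over a gene's RefSeq transcripts. Of 22963 genes with transcript rows, 81 had a matching symbol and 77 of them passed the level. In all, 11244 genes passed the same level. Wild-type cells were kept for 2 weeks on dishes coated with the laminin isoform LN511 in 2i medium, on LN511 in Std medium, on gelatin in 2i medium, or on gelatin in Std medium. Each of the 4 groups had 2 libraries, which the design text calls biological replicates. 2i medium carries inhibitors of the kinases MEK and GSK3 and holds embryonic stem cells in a naive state, and the labels do not give the composition of Std medium. All groups share the same unmodified line, which limits the data to 1 genotype.

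Oxidative phosphorylation takes electrons from NADH at complex I and from succinate at complex II, passes them through ubiquinone to complex III and through cytochrome c to complex IV, where oxygen is reduced. The proton gradient built by complexes I, III and IV drives ATP synthesis by complex V. Most subunits are encoded in the nucleus, several have tissue isoforms, and embryonic stem cells are known to use both glycolysis and respiration, with naive mouse cells described as more respiratory than primed ones.

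Pou5f1, a pluripotency factor of embryonic stem cells, was between 949 and 1245 FPKM in every library. Other stem cell markers moved with the medium. Nanog, a factor of the naive state, was at 446 to 614 FPKM in the 2i libraries, against 43.2 to 56.7 FPKM in the Std libraries, Zfp42 and Esrrb were also lower in every Std library on the same coating, and Utf1 was at 77.5 to 86.7 FPKM in 2i, against 335 to 432 FPKM in Std. Depths read from the steps between low values were within 1.19-fold of one another. Over all 10278 genes tested, the correlation of log2 levels between replicates was 0.959 to 0.964 and that between libraries of different groups 0.907 to 0.955. Summed levels of 9 fibroblast markers were 1.68 to 2.69 FPKM on LN511 in 2i and 5.03 to 6.06 FPKM on LN511 in Std. On gelatin they were 2.42 to 3.10 FPKM in 2i and 6.13 to 6.15 FPKM in Std, with Lum and Postn at 0 in all libraries and 3 of 9 markers above 1 FPKM in any. The fibroblast sum was thus lower in 2i, but its markers did not move together. Thy1 was at 0.228 to 0.512 FPKM in 2i, against 2.04 to 4.45 FPKM in Std. Pdgfrb went the other way, at 0.896 to 1.73 FPKM in 2i, against 0 to 0.494 FPKM in Std. Col1a1 and Twist1 overlapped between the media on gelatin. Subunit genes below also moved with the medium, and the part of stem cell or fibroblast markers in those results was not tested. In 2i the 4 mesendoderm markers summed to 5.13 to 5.75 FPKM on LN511, against 0.710 to 1.95 FPKM in Std on LN511, and to 9.60 to 11.4 FPKM on gelatin, against 0.673 to 0.871 FPKM in Std on gelatin. The 6 trophoblast markers summed to 14.7 to 16.3 FPKM on LN511 in 2i, 22.7 to 26.9 FPKM on LN511 in Std, 23.5 to 24.0 FPKM on gelatin in 2i and 9.66 to 12.9 FPKM on gelatin in Std. The 4 neuroectoderm markers summed to 24.5 to 27.4 FPKM on LN511 in 2i, 33.9 to 43.7 FPKM on LN511 in Std, 22.4 to 26.4 FPKM on gelatin in 2i and 20.0 to 24.8 FPKM on gelatin in Std. Sums of the 7 primitive endoderm markers were 1.12 to 2.65 FPKM on LN511 in 2i, 4.33 to 4.54 FPKM on LN511 in Std, 0.868 to 2.00 FPKM on gelatin in 2i and 1.38 to 2.05 FPKM on gelatin in Std.

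Of the 77 members, 35 belonged to complex I, 4 to complex II, 8 to complex III, 13 to complex IV and 17 to complex V. Single transcripts carried 64 of them and the other 13 had several. Ndufs5-ps, which the symbol rule includes, is annotated as a pseudogene, and reads of Ndufs5 and of this copy may be split between them. Just inside the level were Cox8c, a testis isoform of complex IV subunit 8, with 2 libraries at 1 FPKM or more, and Cox4i2, an isoform of subunit 4 best known from lung, with 4. Just outside it was Cox7b2, which reached 2.15 FPKM in 1 library. Cox6a2 and Cox8b, the heart and muscle isoforms, and Ndufa4l2, a paralogue of Ndufa4 known as a hypoxia-inducible gene, were listed at 0 in all 8 libraries. Ndufb7, Cox5a, Cox7a2, Ndufb11, Ndufb1, Ndufb4b and Ndufb4c had no RefSeq transcript rows and were not analysed here. The levels and sums of complexes I and IV therefore lack them. In the authors' gene values Cox7a2 was at 170 to 196 FPKM in 6 libraries and listed at 0 in 2, and Ndufb7 was at 99.3 to 164 FPKM in all 8.

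Another 5 members were set aside from the test, because a 0 beside a high value in such files can be a failed estimate. Atp5pb, the b subunit in the peripheral stalk of complex V, was at 177 and 176 FPKM on LN511 in 2i and 194 and 192 FPKM on LN511 in Std, and was listed at 0 in all 4 gelatin libraries. Ndufs1, the largest core subunit of complex I, was at 58.5 and 61.6 FPKM on LN511 in 2i, 63.9 FPKM and listed at 0 on LN511 in Std, 37.5 and 60.7 FPKM on gelatin in 2i, and 63.3 FPKM and listed at 0 on gelatin in Std. Ndufb10, an accessory subunit of the membrane arm, was between 96.4 and 169 FPKM in 7 libraries and listed at 0 in 1 gelatin Std library. The other two were Ndufs4, an accessory subunit of the matrix arm listed at 0 in 1 gelatin 2i library, and Ndufa13, which was listed at 0 in both LN511 2i libraries and in 1 gelatin Std library. No fold change is given for these genes, and 72 members were tested.

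The tested members were among the most abundant transcripts of these cells. Of 72, 59 were in the top 10% of tested genes by mean FPKM and 69 in the upper 50%. Together they took 3.70% and 3.95% of the summed FPKM of tested genes on LN511 in 2i, 3.36% and 3.37% on LN511 in Std, 3.79% and 3.81% on gelatin in 2i, and 3.52% in each library on gelatin in Std. That share was higher in every 2i library than in any Std library. Members also differed among themselves by complex. The median of the members' mean levels was 92.6 FPKM in complex I, 93.2 FPKM in complex II, 281 FPKM in complex III, 267 FPKM in complex IV and 372 FPKM in complex V.

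Within complexes the highest and lowest members were far apart. Atp5b, the catalytic beta subunit of ATP synthase, averaged 1124 FPKM over 8 libraries, the highest of the 72, and Atp5d, the delta subunit, was lowest of complex V at 164 FPKM. Complex IV ran from Cox7c, a small subunit, at 827 FPKM to Cox8c at 0.573 FPKM. Complex III ran from Uqcr10, a small subunit, at 379.9 FPKM to Uqcrfs1, the Rieske iron-sulfur protein, at 73.4 FPKM. In complex I, Ndufa4 was highest at 416 FPKM and Ndufs5-ps lowest at 7.65 FPKM. Ndufa4 carries a complex I name and is now counted with complex IV in mammals. The 4 subunits of complex II were close together, from Sdhb, its iron-sulfur subunit, at 71.6 FPKM to Sdhd, a membrane anchor, at 125 FPKM.

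**Figure D1:**
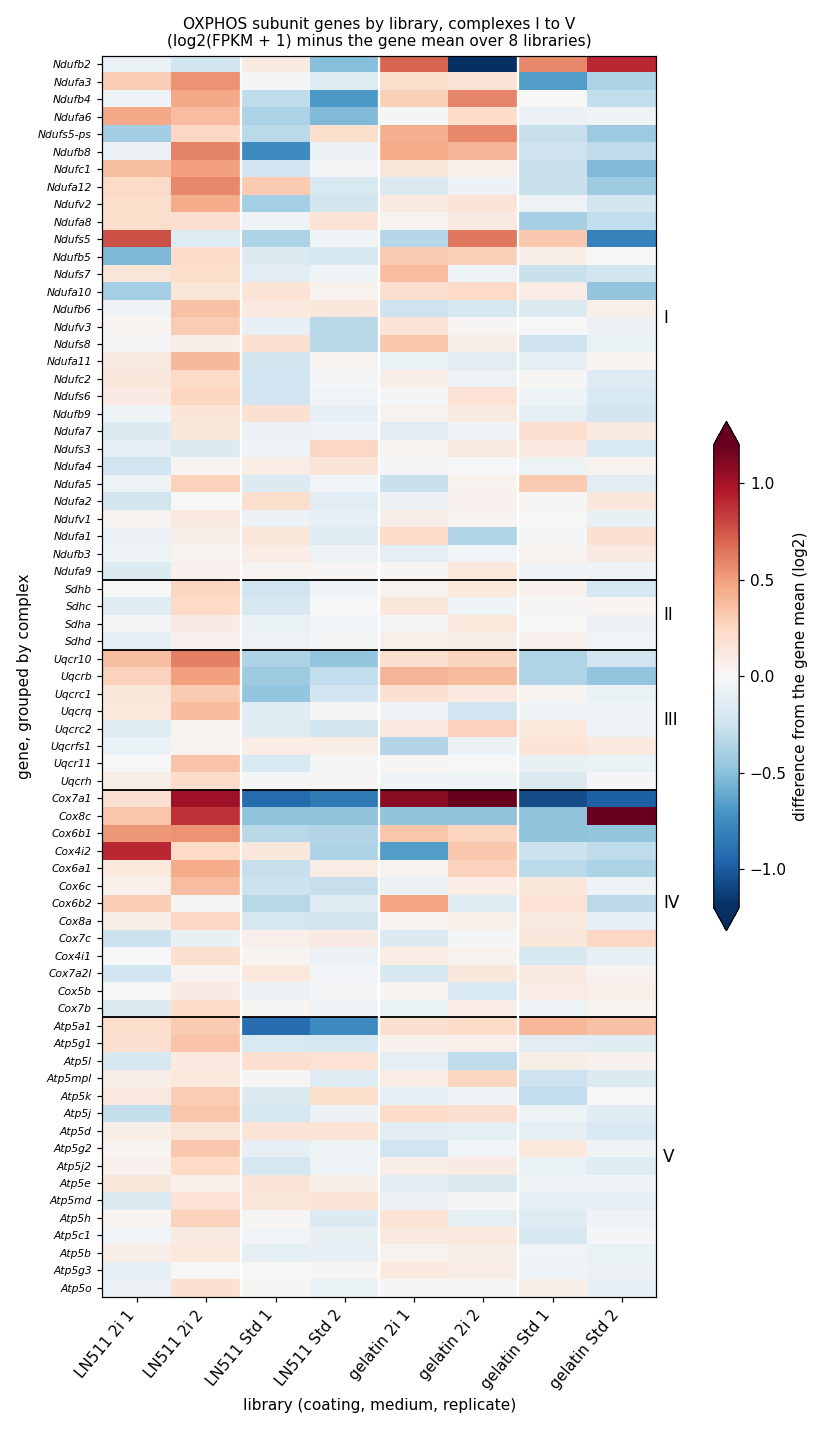
Each row is 1 tested subunit gene, grouped by complex and ordered within it by the range of its group means, and each column is 1 library. Colour is log2(FPKM + 1) minus the gene's mean over 8 libraries, with values beyond 1.2 in size shown at the end of the scale. Cox7a1 is low in all 4 Std libraries, and Atp5a1 is low in both LN511 Std libraries.

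The medium comparison asked how subunit genes stood in 2i relative to Std on each coating. On gelatin 8 of 72 tested members rose in 2i and none fell: Cox7a1, Uqcrb, Cox6b1, Ndufa3, Uqcr10, Ndufc1, Ndufa8 and Atp5mpl. On LN511 14 of 72 rose and none fell: Cox7a1, Atp5a1, Uqcr10, Cox6b1, Ndufa6, Uqcrb, Ndufv2, Uqcrc1, Ndufc1, Ndufa3, Cox6c, Atp5g1, Cox8a and Atp5b. Cox7a1, Cox6b1, Uqcrb, Uqcr10, Ndufa3 and Ndufc1 passed on both coatings. The other 56 members passed in none of the 5 comparisons. A call means that limma's p, adjusted by the method of Benjamini and Hochberg over all 10278 tested genes, was under 0.05. In bulk RNA, fewer cells of a type and less RNA per cell cannot be told apart.

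On gelatin the 8 members are 11.1% of those tested, beside 8.20% of all tested genes called higher, so that the share of members called higher stood near the background. None was called lower, beside 7.20% of all tested genes. At an unadjusted p under 0.05 limma gave 18 members higher and 3 lower, beside 1579 and 1502 of all 10278 tested genes. The median log2 fold change of the members was 0.11, with 53 of 72 above 0, and that of all tested genes was 0.00. On LN511 the 14 members are 19.4% of those tested, beside 8.58% of all tested genes called higher and 9.95% called lower. At an unadjusted p under 0.05, 22 members were higher and 1 lower, beside 1519 and 1817 of all 10278 tested genes. The members' median was 0.18, with 57 of 72 above 0, and the median of all tested genes was -0.04. Without LN511 2i replicate 2 the members' median was 0.10, and without LN511 2i replicate 1 it was 0.28. The background takes genes of every level, and the members lie mostly near the top of that range. Of 72 members, 45 had a log2 fold change above 0 on both coatings.

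Both 2i libraries lay above both Std libraries for 35 members on gelatin and below both for 9, beside 29.9% and 29.3% of all tested genes. On LN511 this held for 38 members and 6 members, beside 27.7% and 32.0% of all tested genes. The counts of calls depended on single libraries. On gelatin 4 members were called without either 2i library (3 higher and 1 lower without replicate 1, 4 higher without replicate 2) and 5 without either Std library (4 higher and 1 lower without replicate 1, 5 higher without replicate 2). On LN511 7 were higher and 3 lower without 2i replicate 2, 18 were higher without 2i replicate 1, 6 without Std replicate 1 and 9 without Std replicate 2. Fitting the 2 LN511 groups alone called 6 members. Cox7a1, Ndufa3, Ndufc1, Ndufv2, Uqcrc1, Cox6c, Cox8a and Atp5b were then not called (limma adjusted p 0.0614 to 0.121). With the 2 gelatin groups fitted alone, Ndufa8 (0.0622), Ndufc1 (0.0755) and Atp5mpl (0.0693) were not called on gelatin. The losses listed below by gene are chiefly those without 1 library. On gelatin Ndufa8 and Atp5mpl were not called with quantile normalization (limma adjusted p = 0.0612 and 0.0595) or median centring (0.0692 and 0.0665). Lower calls appeared on gelatin in 2 members, Cox7c and Uqcrfs1, with quantile normalization and in Cox7c with a replicate block or without either LN511 2i library. On LN511 they appeared in Cox7c with quantile normalization or a replicate block. The lower calls counted above without 1 library of the compared groups were of other members. On gelatin they were Ndufb2 without 2i replicate 1 (log2 fold change -2.21) and Cox8c without Std replicate 1 (-1.71). On LN511 they were Ndufa4 (-0.36), Atp5l (-0.38) and Atp5md (-0.33) without 2i replicate 2.

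**Figure D2:**
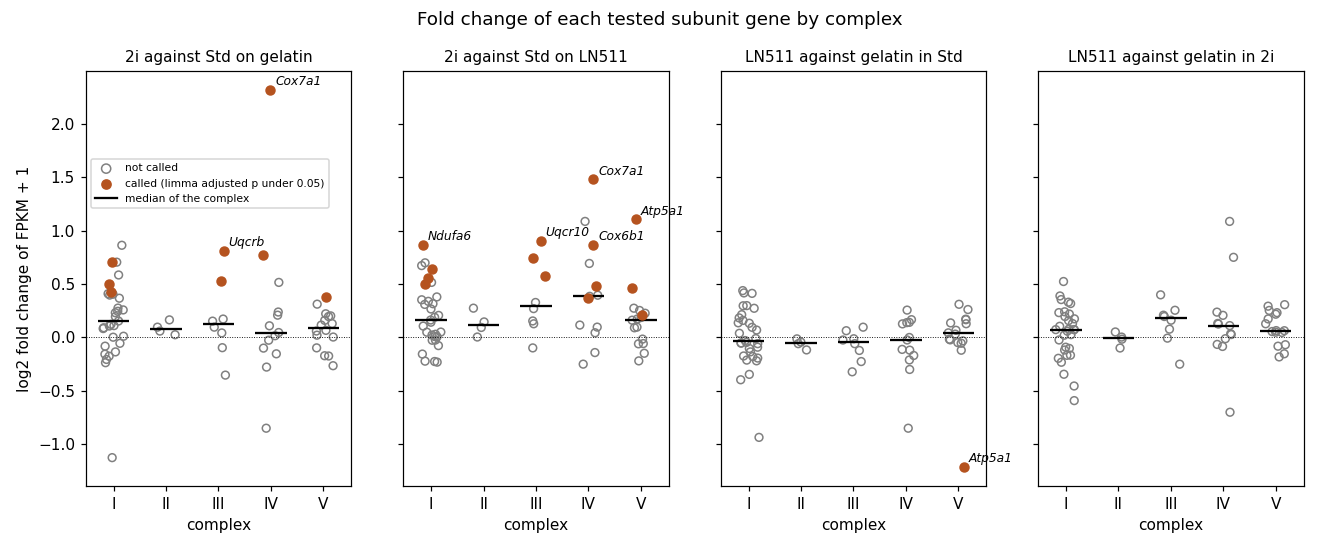
Each point is the log2 fold change of FPKM + 1 of 1 tested subunit gene in 1 of 4 comparisons, by complex, with filled points for genes called by limma at an adjusted p under 0.05 and a bar at the median of each complex. Called members lie above 0 in both medium comparisons, and the only called member of the coating comparisons is Atp5a1 at -1.22 in Std medium.

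Complex IV held the member that differed most. Cox7a1, the heart and skeletal muscle isoform of subunit 7A (chromosome 7, 30184171 to 30186030, GRCm38.p6), was at 66.3 and 89.8 FPKM on gelatin in 2i, against 14.2 and 15.1 FPKM on gelatin in Std. On LN511 Cox7a1 was at 35.0 and 63.0 FPKM in 2i, against 15.7 and 16.6 FPKM in Std. All 4 2i libraries were above all 4 Std libraries, the 2i replicates differed more from each other than the Std replicates did, and the LN511 2i libraries were both below the gelatin 2i libraries. The log2 fold change was 2.32 ± 0.28 (SE, limma, adjusted p = 0.00331) on gelatin and 1.48 ± 0.28 (SE, adjusted p = 0.0141) on LN511. The LN511 call was lost without either LN511 Std library, and with only the 2 LN511 groups fitted (limma adjusted p = 0.066). The related gene Cox7a2l was at 89.7 and 108 FPKM on LN511 in 2i and 115 and 103 FPKM on LN511 in Std. On gelatin Cox7a2l was at 91.8 and 116 FPKM in 2i and 113 and 108 FPKM in Std. Its groups overlapped in medium on both coatings.

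Cox6b1, the widely expressed isoform of subunit 6B on the intermembrane side (chromosome 7, 30616971 to 30626114), was at 592 and 563 FPKM on gelatin in 2i, against 337 and 338 FPKM on gelatin in Std. Its levels on LN511 were 676 and 684 FPKM in 2i, against 375 and 369 FPKM in Std. The replicates of a group were close to each other and the 2i libraries stood clear of the Std libraries. The log2 fold change was 0.77 ± 0.06 (SE, limma, adjusted p = 0.000476) on gelatin and 0.87 ± 0.06 (SE, adjusted p = 0.000269) on LN511, and both calls were kept in each setting tried. Cox6b2, the testis isoform, was at 54.7 and 35.1 FPKM on gelatin in 2i, against 44.0 and 31.2 FPKM on gelatin in Std. Cox6b2 on LN511 was at 48.0 and 39.3 FPKM in 2i, against 30.9 and 34.9 FPKM in Std.

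The small subunits Cox6c and Cox8a were called on LN511. Cox6c was at 612 and 759 FPKM on LN511 in 2i, against 492 and 486 FPKM on LN511 in Std (log2 fold change 0.48 ± 0.12 SE, limma adjusted p = 0.0368). Cox8a was at 518 and 587 FPKM on LN511 in 2i, against 430.3 and 424 FPKM on LN511 in Std (log2 fold change 0.37 ± 0.09 SE, limma adjusted p = 0.0343). In both genes the 2i libraries were higher on LN511 and the groups on gelatin overlapped. Both calls were lost without LN511 2i replicate 2 (adjusted p = 0.114 for Cox6c and 0.112 for Cox8a), without LN511 Std replicate 1 (0.134 and 0.126), without LN511 Std replicate 2 (0.142 and 0.138), without gelatin 2i replicate 1 (0.0559 and 0.0626) and without gelatin 2i replicate 2 (0.0559 and 0.0627). That of Cox6c was lost also without gelatin Std replicate 1 (adjusted p = 0.051) or replicate 2 (0.0509).

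Other complex IV members did not pass. Cox4i1, the common isoform of subunit 4, was at 642 and 622 FPKM on gelatin in 2i, against 529.5 and 566 FPKM on gelatin in Std (log2 fold change 0.21, limma adjusted p = 0.144). Its low isoform Cox4i2 was between 0.364 and 3.07 FPKM. Cox7c, the most abundant complex IV member, was at 735 and 812 FPKM on gelatin in 2i, against 902 and 976 FPKM on gelatin in Std, and at 687 and 771 FPKM on LN511 in 2i, against 855 and 879 FPKM on LN511 in Std. The 2i libraries of Cox7c were below the Std libraries on both coatings, with log2 fold changes of -0.28 on gelatin (limma adjusted p = 0.0689) and -0.25 on LN511 (adjusted p = 0.0821). It was called lower on both coatings with quantile normalization (adjusted p = 0.0288 and 0.0283) and with a replicate block (0.0389 and 0.045). Cox8c, with the fourth widest range of group means, was at 0.764 and 1.56 FPKM on LN511 in 2i, listed at 0 in both LN511 Std and both gelatin 2i libraries, and listed at 0 and at 2.26 FPKM on gelatin in Std. Cox5b, the zinc-binding subunit, had log2 fold changes of -0.16 on gelatin and 0.10 on LN511 (limma adjusted p = 0.282 and 0.491).

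In complex III 2 of 8 members rose on gelatin and 3 of 8 on LN511. These are 25.0% and 37.5%, beside 8.20% and 8.58% of all tested genes called higher. Uqcrb, a small subunit near the ubiquinone site (chromosome 13, 66900576 to 66905350), was at 402 and 394 FPKM on gelatin in 2i, against 236 and 217 FPKM on gelatin in Std. On LN511 it was at 367 and 427 FPKM in 2i, against 226 and 248 FPKM in Std. The media did not overlap on either coating, and the log2 fold change was 0.81 ± 0.09 (SE, limma, adjusted p = 0.00311) on gelatin and 0.74 ± 0.09 (SE, adjusted p = 0.00331) on LN511. Both calls were kept in each setting tried.

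Uqcr10, a small membrane subunit (chromosome 11, 4701968 to 4704344), was at 421 and 441 FPKM on gelatin in 2i, against 285 and 313 FPKM on gelatin in Std. Its levels on LN511 were 472 and 558 FPKM in 2i, against 284 and 265 FPKM in Std. Again the media did not overlap, and LN511 2i replicate 2 was the highest library. The log2 fold change was 0.53 ± 0.10 (SE, limma, adjusted p = 0.0155) on gelatin and 0.90 ± 0.10 (SE, adjusted p = 0.00181) on LN511. On gelatin the call was lost without 2i replicate 1 (adjusted p = 0.0661), 2i replicate 2 (0.0891) or Std replicate 1 (0.0894). Uqcrc1, a core protein of the matrix side, was at 215 and 242 FPKM on LN511 in 2i, against 141 and 167 FPKM on LN511 in Std (log2 fold change 0.57 ± 0.11 SE, limma adjusted p = 0.0136), and this call was lost without LN511 2i replicate 2 (adjusted p = 0.0567) or LN511 Std replicate 1 (0.0672).

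The 2 other panel members of complex III did not pass in either medium comparison. Uqcrc2, the second core protein, had log2 fold changes of 0.15 on gelatin and 0.13 on LN511 (limma adjusted p = 0.419 and 0.477). Uqcrfs1 was at 56.9 and 69.7 FPKM on gelatin in 2i, against 82.2 and 79.4 FPKM on gelatin in Std, and its log2 fold change was -0.36 (limma adjusted p = 0.0889). On LN511 it was at 69.1 and 75.4 FPKM in 2i, against 77.8 and 77.0 FPKM in Std (log2 fold change -0.10, adjusted p = 0.6). Uqcrfs1 RNA was thus below Std in every 2i library of the same coating but was not called, while Uqcrb and Uqcr10 were called higher.

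Complex I had 3 of 31 tested members higher on gelatin and 4 of 31 on LN511, and most of these were accessory subunits. The shares are 9.68% and 12.9%, beside 8.20% and 8.58% of all tested genes called higher, and so near the background on gelatin. Ndufa3, in the membrane arm (chromosome 7, 3617347 to 3620165), was at 308 and 299 FPKM on gelatin in 2i, against 167 and 206 FPKM on gelatin in Std. Ndufa3 on LN511 was at 327 and 389 FPKM in 2i, against 264 and 239 FPKM in Std. The media did not overlap on either coating, and the log2 fold change was 0.71 ± 0.13 (SE, limma, adjusted p = 0.0138) on gelatin and 0.50 ± 0.13 (SE, adjusted p = 0.0373) on LN511. The gelatin call was lost without 2i replicate 1 (adjusted p = 0.0778), 2i replicate 2 (0.0676) or Std replicate 1 (0.0641). The LN511 call was lost without LN511 2i replicate 2 (0.141), LN511 Std replicate 1 (0.094) or replicate 2 (0.171), and without gelatin 2i replicate 1 or replicate 2 (0.0669 for each).

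Ndufc1, a small membrane-arm subunit (chromosome 3, 51405479 to 51408955), was at 142 and 134 FPKM on gelatin in 2i, against 107 and 88.8 FPKM on gelatin in Std. Ndufc1 on LN511 was at 166 and 181 FPKM in 2i, against 109 and 127 FPKM in Std. Here too the media did not overlap, with log2 fold changes of 0.50 ± 0.12 (SE, limma, adjusted p = 0.0368) on gelatin and 0.55 ± 0.12 (SE, adjusted p = 0.023) on LN511. The gelatin call was lost without 2i replicate 1 (adjusted p = 0.155), 2i replicate 2 (0.111) or Std replicate 2 (0.151), and the LN511 call without LN511 2i replicate 1 (0.051), LN511 2i replicate 2 (0.0939) or LN511 Std replicate 1 (0.116).

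The remaining called members of complex I passed on 1 coating each. Ndufa6, an accessory subunit of the LYR protein family, was at 139 and 131 FPKM on LN511 in 2i, against 77.5 and 70.0 FPKM on LN511 in Std (log2 fold change 0.87 ± 0.11 SE, limma adjusted p = 0.00305, kept in each setting tried). Ndufv2, an iron-sulfur core subunit of the NADH-oxidising module, was at 90.7 and 107 FPKM on LN511 in 2i, against 58.6 and 67.0 FPKM on LN511 in Std (log2 fold change 0.64 ± 0.12 SE, limma adjusted p = 0.014). In both genes the LN511 Std libraries were low against the LN511 2i ones, and the difference on gelatin had the same direction but did not pass. The Ndufv2 call was lost without LN511 2i replicate 2 (adjusted p = 0.0555) or LN511 Std replicate 1 (0.0773). Ndufa8, an accessory subunit of the CHCH protein family, was at 60.0 and 63.0 FPKM on gelatin in 2i, against 43.9 and 47.4 FPKM on gelatin in Std (log2 fold change 0.42 ± 0.10 SE, limma adjusted p = 0.0391). That call was lost without any 1 of the 4 gelatin libraries or the 2 LN511 2i libraries (adjusted p 0.0535 to 0.156).

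The core subunits Ndufs7 and Ndufs8, which carry iron-sulfur clusters, and Ndufv1, which binds NADH, were not called. The log2 fold changes of Ndufs7, Ndufs8 and Ndufv1 were 0.40, 0.37 and 0.09 on gelatin (limma adjusted p = 0.115, 0.245 and 0.52) and 0.27, 0.10 and 0.16 on LN511 (adjusted p = 0.26, 0.747 and 0.222). Ndufb2, an accessory subunit, had the third widest range of group means, but its replicates were as far apart. It was at 97.0 and 20.8 FPKM on gelatin in 2i, against 89.3 and 112 FPKM on gelatin in Std, and at 56.4 and 50.9 FPKM on LN511 in 2i, against 64.5 and 41.5 FPKM on LN511 in Std. It was not called in any comparison, and without gelatin 2i replicate 1 it would be called lower on gelatin (log2 fold change -2.21, limma adjusted p = 0.0173).

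Complex II had no called member in any comparison, and limma gave none of the 4 an unadjusted p under 0.05. Sdha, the flavoprotein that oxidises succinate, was at 103 and 114 FPKM on gelatin in 2i, against 104 and 99.2 FPKM on gelatin in Std. On LN511 it was at 102 and 112 FPKM in 2i, against 98.5 and 102 FPKM in Std. The largest log2 fold change in complex II was that of Sdhb on LN511, at 0.27 ± 0.14 (SE, limma, adjusted p = 0.227). Sdhc and Sdhd, the membrane anchors, had log2 fold changes of 0.02 and 0.06 on gelatin and 0.14 and 0.00 on LN511. A p that misses the threshold with 2 libraries a group does not show that these genes stood level.

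In complex V 1 of 16 tested members rose on gelatin and 3 of 16 on LN511. These are 6.25% and 18.8%, beside 8.20% and 8.58% of all tested genes called higher, so the gelatin share, of 1 gene, was near the background. Atp5mpl, a small proteolipid subunit, was at 340.0 and 383 FPKM on gelatin in 2i, against 269.9 and 286 FPKM on gelatin in Std (log2 fold change 0.38 ± 0.09 SE, limma adjusted p = 0.0364). The media did not overlap there, and the call was lost without any 1 of the 4 gelatin libraries (adjusted p 0.0609 to 0.163). Atp5b was at 1187 and 1228 FPKM on LN511 in 2i, against 1036 and 1049 FPKM on LN511 in Std (log2 fold change 0.21 ± 0.05 SE, limma adjusted p = 0.0316). It was higher in 2i on LN511 with no overlap, and the call was lost without LN511 2i replicate 2 (adjusted p = 0.0525), without either LN511 Std library (0.147 and 0.121) or without any gelatin library (0.0567 to 0.0579). With quantile normalization the adjusted p of Atp5b was 0.49.

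The membrane ring of ATP synthase is built from a c subunit that 3 genes encode as precursors, and the mature proteins are identical. Atp5g1 was at 290.0 and 319 FPKM on LN511 in 2i, against 222 and 218 FPKM on LN511 in Std (log2 fold change 0.47 ± 0.07 SE, limma adjusted p = 0.00604, kept in each setting tried). On gelatin it was at 261 and 262 FPKM in 2i, against 230.1 and 227 FPKM in Std, without a call. The 3 genes together summed to 1191 and 1364 FPKM on LN511 in 2i, against 1125 and 1137 FPKM on LN511 in Std, and to 1167 and 1217 FPKM on gelatin in 2i, against 1187 and 1124 FPKM on gelatin in Std. Atp5g1 made up 24.4% and 23.4% of that sum on LN511 in 2i, against 19.7% and 19.1% on LN511 in Std, and 22.4% and 21.5% on gelatin in 2i, against 19.4% and 20.2% on gelatin in Std. Its share was higher in each 2i library than in any Std library. Of the other catalytic and stalk subunits, Atp5c1, the gamma rotor subunit, and Atp5o, at the top of the peripheral stalk, had log2 fold changes of 0.22 and 0.00 on gelatin and 0.10 and 0.09 on LN511, and neither passed.

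**Figure D3:**
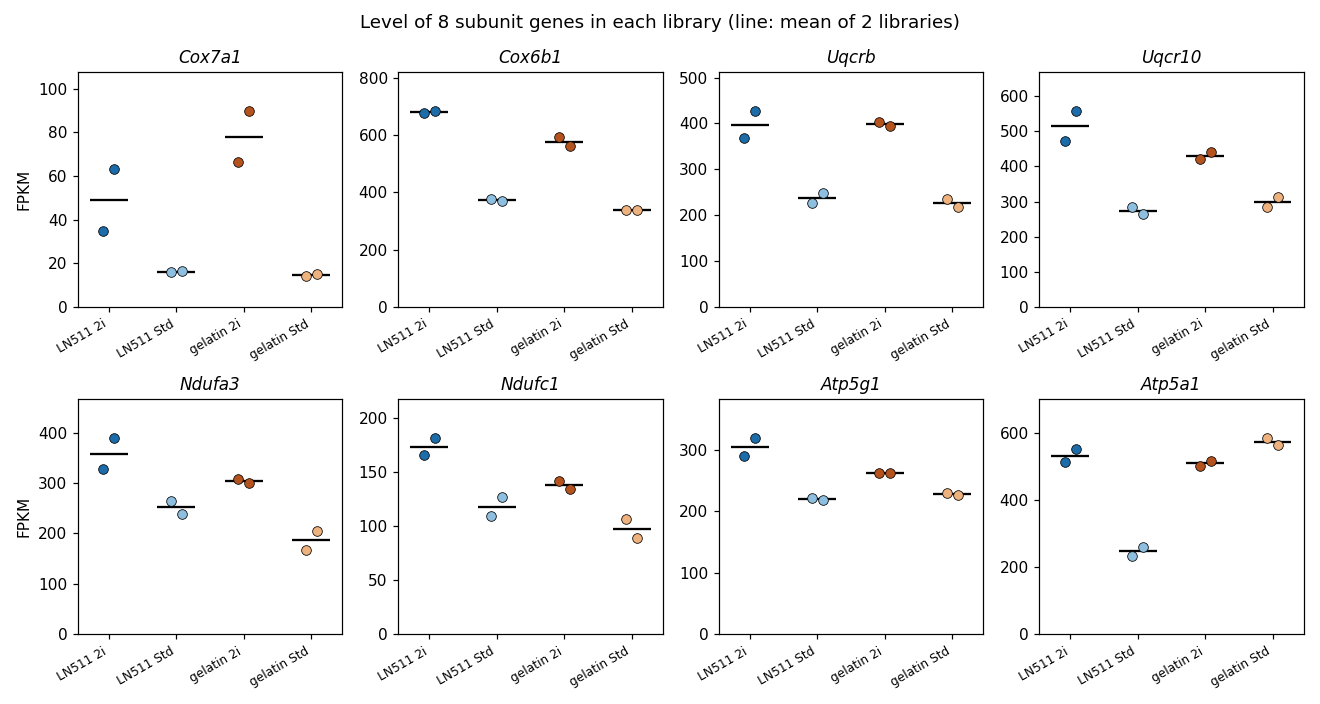
FPKM of 8 subunit genes in each library, with a point per library, a bar at the mean of the 2 libraries of a group, and axes from 0. In Cox7a1, Cox6b1, Uqcrb, Uqcr10, Ndufa3 and Ndufc1 all 4 2i libraries lie above all 4 Std libraries, and Atp5a1 is low in the 2 LN511 Std libraries.

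Promoters of 5 of the 6 members that passed on both coatings are shown because these genes moved together with the medium. Uqcrb is named only. Each is the 250 bases before a start in the RefSeq promoter table for GRCm38.p6, read 5′ to 3′ on the gene's strand. Capitals mark matches, on either strand, to the letters of an NRF1 site (GCGCA, any base, then GCGC), an ETS site (CCGGAAG) or a CCAAT box (CCAAT). NRF1 and ETS-family factors are known regulators of respiratory chain genes. Cox7a1 is at chr7:30183921-30184170 on the plus strand, Cox6b1 at chr7:30626115-30626364 on the minus strand, Uqcr10 at chr11:4704345-4704594 on the minus strand, Ndufa3 at chr7:3617123-3617372 on the plus strand and Ndufc1 at chr3:51408956-51409205 on the minus strand. The start used for Ndufa3 lies inside the gene record given above, so its window runs over the first bases of that record, and the other windows end beside the gene.
Cox7a1: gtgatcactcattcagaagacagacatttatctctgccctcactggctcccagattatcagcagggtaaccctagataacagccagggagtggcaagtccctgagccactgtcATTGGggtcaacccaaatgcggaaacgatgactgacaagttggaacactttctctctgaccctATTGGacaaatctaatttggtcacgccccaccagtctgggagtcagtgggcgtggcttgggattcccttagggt
Cox6b1: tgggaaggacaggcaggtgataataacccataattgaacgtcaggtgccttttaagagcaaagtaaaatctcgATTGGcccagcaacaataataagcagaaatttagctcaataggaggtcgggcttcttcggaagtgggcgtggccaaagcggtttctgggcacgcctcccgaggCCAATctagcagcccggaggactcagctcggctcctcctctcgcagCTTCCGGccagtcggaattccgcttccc
Uqcr10: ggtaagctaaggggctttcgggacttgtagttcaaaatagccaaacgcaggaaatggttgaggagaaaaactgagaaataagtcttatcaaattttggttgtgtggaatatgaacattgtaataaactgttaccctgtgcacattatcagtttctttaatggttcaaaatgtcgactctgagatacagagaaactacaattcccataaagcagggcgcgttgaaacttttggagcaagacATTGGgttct
Ndufa3: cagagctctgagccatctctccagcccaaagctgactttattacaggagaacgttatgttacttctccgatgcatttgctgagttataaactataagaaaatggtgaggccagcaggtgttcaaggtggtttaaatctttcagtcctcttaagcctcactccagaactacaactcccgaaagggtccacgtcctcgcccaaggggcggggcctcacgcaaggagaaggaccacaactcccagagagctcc
Ndufc1: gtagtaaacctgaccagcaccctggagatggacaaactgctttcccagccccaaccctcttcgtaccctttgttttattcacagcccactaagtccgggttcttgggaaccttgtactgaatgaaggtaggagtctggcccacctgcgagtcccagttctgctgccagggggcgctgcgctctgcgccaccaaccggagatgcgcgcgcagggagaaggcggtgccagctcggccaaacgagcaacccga

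Cox7a1 and Cox6b1 held 2 CCAAT matches each, Uqcr10 held 1, Cox6b1 also held 1 ETS match, and the Ndufa3 and Ndufc1 windows held none of the 3 sets of letters. A promoter was at hand for 58 of the 72 tested members, 63 promoters in all. NRF1 letters were found in 22.2% of these, against 8.23% of promoters of all tested genes and 3.74% of all promoters of the table. ETS letters were found in 17.5%, 14.0% and 6.91% of the same sets, and CCAAT letters in 44.4%, 36.6% and 33.8%. Among 12 promoters of members that rose in 2i on either coating, 1 held NRF1 letters, 1 held ETS letters and 7 held CCAAT letters. The letters of an Sp1 site (GGGCGG), which can lie within other GC-rich matches, were found in 31.7% of member promoters, against 59.0% for all tested genes and 32.7% of the table. A STAT site (TTCCNGGAA) and an estrogen-related receptor site (TCAAGGTCA) were each found in 1.59% of member promoters, against 0.988% and 0.288% for all tested genes. These counts describe letters in a window and were not tested.

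The coating comparison asked how subunit genes stood on LN511 relative to gelatin in each medium. In Std 1 of 72 members, Atp5a1, fell on LN511 and none rose, beside 0.564% of all tested genes called lower, 1.54% called higher and 2.10% called in either direction. At an unadjusted p under 0.05 limma gave 6 members higher and 4 lower, beside 1005 and 624 of all 10278 tested genes. The members' median log2 fold change was -0.02 and that of all tested genes 0.05, and 30 of 72 were above 0. Over all tested genes 73.1% of the calls were higher, and 62.9% after median centring. In 2i no member was called by limma, beside 0.0195% of all tested genes. There 12 members were higher and 2 lower at an unadjusted p under 0.05, beside 669 and 559 of all 10278 tested genes. In the other settings the count in 2i was 0 as well, apart from Atp5pb, which is called when genes with doubtful zeros are kept. The members' median in 2i was 0.07, with 49 of 72 above 0, and -0.01 without LN511 2i replicate 2.

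Both LN511 libraries lay above both gelatin libraries in Std for 20 members and below them for 21, beside 28.7% and 20.7% of all tested genes. In 2i this held for 21 and 9 members, beside 22.2% and 20.7% of all tested genes. Complexes did not stand apart in Std, where their medians were -0.03 for complex I, -0.05 for complex II, -0.04 for complex III, -0.03 for complex IV and 0.04 for complex V on the log2 scale.

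Atp5a1, the alpha subunit of the catalytic head (chromosome 18, 77773768 to 77782869), was at 234 and 260.3 FPKM on LN511 in Std, against 585 and 565 FPKM on gelatin in Std. In 2i it was at 513 and 551 FPKM on LN511, against 503 and 517 FPKM on gelatin. The 2 LN511 Std libraries stood below the other 6, which ran from 503 to 585 FPKM. In Std the log2 fold change of LN511 against gelatin was -1.22 ± 0.07 (SE, limma, adjusted p = 0.00267), and on LN511 that of 2i against Std was 1.10 ± 0.07 (SE, adjusted p = 0.000316). The coating call in Std was lost when the 2 Std groups were fitted alone (adjusted p = 0.0701), and the medium call on LN511 was kept in each setting tried. Atp5b, its partner in the same head, was at 1036 and 1049 FPKM on LN511 in Std, against 1099 and 1060.0 FPKM on gelatin in Std. Atp5a1 has 1 RefSeq transcript here, and the authors' gene table lists it at 0 in 4 libraries, among them both LN511 Std libraries. Reads given to assembled transcripts, which name no gene, are missing from its sum, and their part in its level was not tested. The sums of neuroectoderm and primitive endoderm markers given above were also highest in the 2 LN511 Std libraries. Those of trophoblast markers were higher there than on LN511 in 2i or on gelatin in Std. Single markers went different ways. Nes was at 10.9 and 20.2 FPKM there, against 2.39 to 9.65 FPKM elsewhere, but Sox1, at 2.19 and 2.83 FPKM, was below every 2i library. Krt7, Hand1 and Sox7 were highest there, and Foxa2 was listed at 0. Cdx2, at 0.544 and 0.534 FPKM, was below its 1.81 and 2.15 FPKM on LN511 in 2i. The part of these markers was not tested either.

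The interaction, the medium effect on LN511 minus that on gelatin, tested whether the coatings differed in their response to 2i. Atp5a1 alone passed among 72 members, with a log2 value of 1.28 ± 0.10 (SE, limma, adjusted p = 0.0151), beside 0.0486% of all tested genes called higher and 0.185% called in either direction. Its own medium effects were 1.10 on LN511 and -0.17 on gelatin. The interaction call was lost without LN511 Std replicate 1 (adjusted p = 0.116) or replicate 2 (0.0597), gelatin 2i replicate 1 (0.0627) or replicate 2 (0.107), and gelatin Std replicate 1 (0.088) or replicate 2 (0.0922). At an unadjusted p under 0.05, 10 members were higher and 1 lower, beside 492 and 759 of all 10278 tested genes. The members' median interaction was 0.10, with 45 of 72 above 0, and that of all tested genes was -0.04. The members' median was -0.02 without LN511 2i replicate 2, 0.17 without LN511 2i replicate 1 and 0.03 with quantile normalization, so that its sign rested on 1 library. Median centring moved the medians of members and of all tested genes to 0.22 and 0.08, and called 12 genes higher and 13 lower, against 5 higher and 14 lower without it. The members called on 1 coating alone (8 on LN511, 2 on gelatin) are, other than Atp5a1, not shown to differ between the coatings.

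Summed by complex, subunit levels were higher in 2i than in Std for complexes I, III, IV and V. On gelatin complex III summed to 2060 and 2049.6 FPKM in 2i, against 1719 and 1730.0 FPKM in Std. On LN511 it summed to 2123 and 2489 FPKM in 2i, against 1617 and 1710.2 FPKM in Std. Complex IV summed to 3966 and 4134 FPKM on gelatin in 2i, against 3776 and 3716 FPKM on gelatin in Std, and to 4002 and 4568 FPKM on LN511 in 2i, against 3579 and 3611 FPKM on LN511 in Std. The 2 media did not overlap in these sums on either coating. Complex I summed to 3881 and 3906 FPKM on gelatin in 2i, against 3539 and 3461 FPKM on gelatin in Std, and complex V to 6922 and 6998 FPKM, against 6658 and 6629 FPKM. In all complexes LN511 2i replicate 2 was the highest library, at 19683 FPKM over the 72 genes, against 17117 FPKM in LN511 2i replicate 1. Its sum over all tested genes was highest too, at 497959 FPKM in LN511 2i replicate 2, against 451237 to 468965 FPKM in the other libraries. Complex II, at 349 to 423 FPKM over the 8 libraries, overlapped between the media on LN511. The sums weigh abundant genes most and were not tested.

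**Figure D4:**
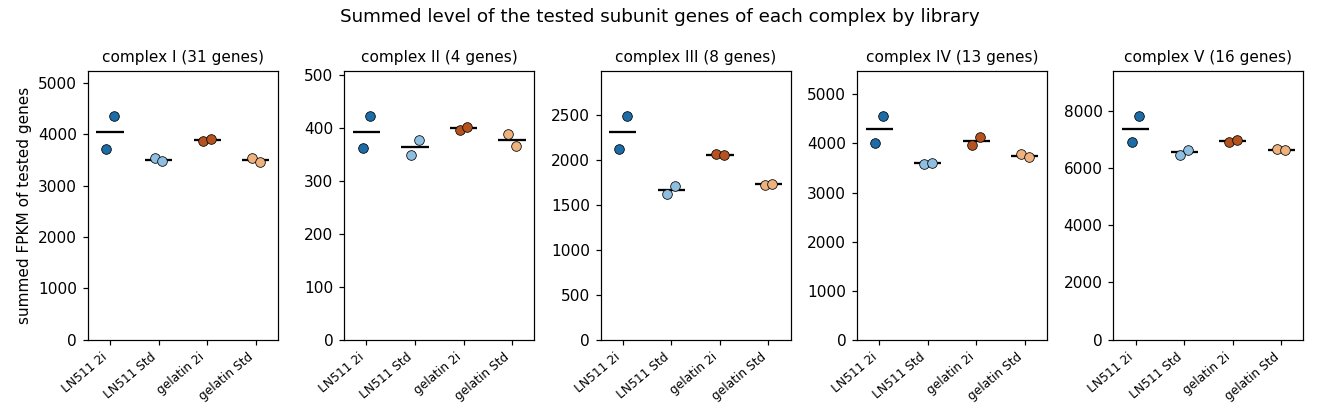
Summed FPKM of the tested subunit genes of each complex, with a point per library and a bar at the mean of the 2 libraries of a group. Axes start at 0 and differ between complexes. The LN511 2i points are the most spread, with replicate 2 the highest library in every complex. Replicate 2 was also the highest library in the sum over all tested genes.

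Genes that work beside the complexes were described as lists. Assembly factors help build the complexes without staying in them, and their list here also holds genes with another role, such as Lrpprc. Of 37 tested genes of that list none rose in 2i and 1 fell on gelatin, where limma gave 5 an unadjusted p under 0.05. None rose and 2 fell on LN511, with 7 at an unadjusted p under 0.05. The median log2 fold change was -0.03 on gelatin and -0.14 on LN511. The falls make up 2.70% of the list on gelatin and 5.41% on LN511, beside 7.20% and 9.95% of all tested genes called lower. Those that fell were Ecsit, a complex I assembly factor, on gelatin (log2 fold change -0.90, limma adjusted p = 0.0415), and Lrpprc, which stabilises mitochondrial mRNA, and Ndufaf7, a complex I assembly factor, on LN511 (-0.38 and -0.95, adjusted p = 0.0393 and 0.0485). Of 12 tested regulators of mitochondrial biogenesis none was called in either medium comparison. By limma 5 on gelatin and 1 on LN511 had an unadjusted p under 0.05. For both lists the background with such a p was 3081 of 10278 tested genes on gelatin and 3336 on LN511. In 73 tested mitochondrial ribosome genes 1 rose and 3 fell on gelatin (1.37% and 4.11%) and 6 rose and 2 fell on LN511 (8.22% and 2.74%). These shares were below the all-gene background in each direction, 8.20% and 7.20% on gelatin and 8.58% and 9.95% on LN511. The share that rose on LN511 was near its background.

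The citric acid cycle feeds complexes I and II, and 12 of its 14 listed genes were tested. On gelatin 1 rose and 2 fell, or 8.33% and 16.7%, beside 8.20% and 7.20% of all tested genes. On LN511 2 rose and 3 fell, or 16.7% and 25.0%, beside 8.58% and 9.95%. Sucla2, the ATP-forming beta subunit of succinyl-CoA ligase, was at 46.9 and 49.2 FPKM on gelatin in 2i, against 31.9 and 33.4 FPKM on gelatin in Std, and at 57.2 and 57.8 FPKM on LN511 in 2i, against 36.7 and 37.2 FPKM on LN511 in Std. Suclg2, its GTP-forming counterpart, was at 15.9 and 15.4 FPKM on gelatin in 2i, against 37.9 and 26.1 FPKM on gelatin in Std, and at 15.2 and 11.5 FPKM on LN511 in 2i, against 44.0 and 44.6 FPKM on LN511 in Std. The 2 beta subunits thus lay on opposite sides of Std in 2i on both coatings. The log2 fold changes were 0.54 and 0.63 for Sucla2 (limma adjusted p = 0.0119 and 0.00629) and -0.96 and -1.67 for Suclg2 (adjusted p = 0.0262 and 0.00315), on gelatin and on LN511. Dlst, the succinyltransferase of the oxoglutarate dehydrogenase complex, fell on both coatings (-0.46 and -0.63, limma adjusted p = 0.0241 and 0.00721).

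Of 9 tested electron carriers and exchange proteins, 1 rose and 1 fell on gelatin, 11.1% each way beside 8.20% and 7.20% of all tested genes. On LN511 3 rose and 2 fell, or 33.3% and 22.2%, beside 8.58% and 9.95%. Ucp2, an inner-membrane carrier, was at 67.6 and 78.4 FPKM on gelatin in 2i, against 45.0 and 44.6 FPKM on gelatin in Std (log2 fold change 0.69, limma adjusted p = 0.00809), and rose on LN511 as well (0.88, adjusted p = 0.00275). Slc25a5, an ADP/ATP carrier, fell on both coatings (-0.33 and -0.37, limma adjusted p = 0.0321 and 0.0194). Slc25a4, the ADP/ATP carrier best known from heart and muscle, was at 125 and 127 FPKM on LN511 in 2i, against 316 and 313 FPKM on LN511 in Std. On gelatin it was at 148 and 157 FPKM in 2i, against 154 FPKM in each Std library. Its 2 LN511 Std libraries stood above the other 6, the reverse of Atp5a1, with an interaction of -1.30 (limma adjusted p = 0.0114). In Std on LN511 Cycs, cytochrome c, was at 52.3 and 54.3 FPKM, against 36.1 and 34.4 FPKM on gelatin (log2 fold change 0.58, limma adjusted p = 0.0372).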

How the data were processed

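RNA-seq of 8 libraries (4 groups, 2 biological replicates each) was used. The authors deposited FPKM values for transcripts and for genes. The genome build mm10, TopHat2 2.1.1 and Cufflinks 2.1.1 are named per the submitters' processing notes. Not given in the sources used here are settings, annotation, strandedness and any scaling across libraries. Without read counts, counting error is unknown.

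Gene values are sums of the FPKM of RefSeq transcripts, 31786 of 32688 of which matched a symbol in the RefSeq table for GRCm38.p6. The 21844 rows of assembled transcripts were left out. The gene table was an alternative only, since it lists 47.3% of values of 1 FPKM or more at 0 (50.6% for members).

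Genes at 1 FPKM or more in 2 libraries were kept. Doubtful zeros set aside 836 genes (1 replicate at 0, its partner at least 5 FPKM) and 130 genes (a group at 0, another group's mean at least 5 FPKM), which left 10278. limma 3.58.1 in R 4.3.3 (eBayes with trend) was fitted to log2(FPKM + 1) with 1 mean per group (4 residual degrees of freedom), tested on simulated data, with Benjamini-Hochberg adjustment within each of 5 comparisons. On that scale fold changes of low genes are understated. The p-values set group differences against the spread between the 2 libraries of a group, which is shared over the 4 groups and moderated across genes.

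Members, lists and tests were chosen with earlier results of these data known. Named are members called in any comparison, the highest and lowest of each complex, the 5 with the widest range of group means, a panel of catalytic subunits, isoforms and members set aside. The result of 1 panel gene is not reported here. Alternatives were other pseudocounts, filters, scalings, gene values, sets of libraries and a replicate block.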

Additional observations from a re-analysis of the deposited data

Results flagged for a closer look

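Atp5a1, the alpha subunit of ATP synthase, stood out because its response to 2i differed between the coatings by the test of the interaction itself. The log2 fold change of 2i against Std was 1.10 on LN511 and -0.17 on gelatin, and their difference was 1.28 ± 0.10 (SE, limma, adjusted p = 0.0151). The 2 LN511 Std libraries, at 234 and 260.3 FPKM, set this difference, and the other 6 ran from 503 to 585 FPKM. The adjusted p was 0.01 to 0.116 over the 16 alternatives, and 9 of them kept the call.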

How the results depend on the processing

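The 24 calls of single members were recomputed in 411 alternatives in all, of which 320 kept the call, 91 kept the direction but not the call, and 0 turned the direction. Calls kept in each setting were Uqcrb, Cox6b1 and Cox7a1 on gelatin and Ndufa6, Uqcr10, Uqcrb, Cox6b1, Atp5a1 and Atp5g1 on LN511. With only the compared groups fitted, all-gene calls were 998 (gelatin medium, against 1583), 962 (LN511 medium, against 1905), 6 (coating in Std, against 216) and 0 (coating in 2i, against 2), and member calls 6 on LN511 (against 14) and 0 for the coating in Std (against 1). The deposited gene table, which left 9 members tested, called 1, 2, 0 and 0 members and 295, 326, 135 and 65 genes for the medium on gelatin, the medium on LN511, the coating in Std and the interaction, and 54 genes for the coating in 2i. Keeping doubtful zeros called 2 members for the coating in Std and 1 in 2i, Atp5pb being the gene added, and 42 genes for the coating in 2i and 53 for the interaction. For the coating in 2i, a pseudocount of 0.1 called 0 genes, no filter 15, a filter at 5 FPKM 17 and the highest transcript 16, and no filter called 31 for the interaction. The cause was not tested.

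Over all tested genes the replicate numbers showed no pairing of the samples, with correlations of -0.02 to 0.02 between the deviations of same-numbered libraries. A pairing that touches few genes would not show in such correlations. With a replicate block 8 members were called on gelatin (7 higher, 1 lower) and 11 on LN511 (10 higher, 1 lower). On gelatin Ndufc1 (limma adjusted p = 0.0627) and Atp5mpl (0.0604) were then not called, and Cox6a1 (higher, 0.0407) and Cox7c (lower, 0.0389) were. On LN511 Ndufa3 (0.0516), Cox6c (0.0555), Cox8a (0.0588) and Atp5b (0.0577) were then not called. The block also called 80 genes for the coating in Std, 0 for the coating in 2i and 1 for the interaction, with 0 members for the interaction (Atp5a1, adjusted p = 0.0518).

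Leaving out 1 replicate at a time, member calls ran from 4 to 9 on gelatin, 6 to 18 on LN511, 1 in each case for the coating in Std, 0 in 2i and 0 to 1 for the interaction. All-gene calls ran from 648 to 1516 on gelatin, 861 to 1625 on LN511, 9 to 199 for the coating in Std, 0 to 12 in 2i and 0 to 11 for the interaction. With 1 library left in a group, it is assumed to vary like the others. FPKM without counts and 2 libraries a group limit the precision for low members such as Cox8c and Cox4i2.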
